A study of Caenorhabditis elegans with 12 samples.

Results

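Whole Caenorhabditis elegans carrying mutations of spr-4, spr-3 and daf-2 together (genotype spr-4;spr-3;daf-2, called the triple mutant) were compared with daf-2 worms, both at day 10. The comparison rests on 6 of the 12 RNA-seq libraries of the series, 3 biological replicates of each genotype, chosen by their labelled genotype and age. The other 6 libraries are 3 of N2, the wild type, and 3 with the genotype spr-4;spr-3, called the double mutant. All strains are labelled with the N2 background, were grown at 20 °C, and were harvested in batches of 100 worms per strain, so that each library is a pool of animals. The daf-2 mutation is carried by both sides of the comparison, and what differs by label is the mutation of spr-3 and spr-4. Other differences between the strains were not tested. The sources used here do not give the alleles, nor whether each genotype is more than 1 isolate.

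In worms the receptor for insulin-like signals is the product of daf-2. Animals with reduced receptor function live long, which requires the FOXO factor DAF-16. SPR-3 and SPR-4 are zinc finger proteins that came from a screen for suppressors of presenilin mutants, and they are compared with REST, the vertebrate repressor of neuronal genes. The comparison therefore asks how the transcripts of a long-lived strain differ once these repressor-like genes are mutated.

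Library totals were 28290959, 11892808 and 46493665 counts in daf-2 and 27576129, 40481156 and 41738783 in the triple mutant, and replicate 2 of daf-2 was the shallowest of these 6. Levels are given in CPM, counts scaled to library size with TMM factors, in order of replicate, and changes as log2 fold change of the triple mutant over daf-2 ± standard error. Log levels correlated at 0.957 to 0.979 within daf-2, 0.958 to 0.961 within the triple mutant and 0.925 to 0.947 between them. Transcripts of mitochondrial DNA made up 1.12 to 1.45% of counts in daf-2 and 0.879 to 1.04% in the triple mutant, without overlap, and of 16 tested mitochondrial DNA genes 0 rose and 3 fell (18.8%, median log2 fold change -0.37). Of short lists of defining markers, 5 of 5 for neurons, 4 of 4 for body muscle, 5 of 5 for intestine and 5 of 5 for oocytes and germ line were above the count filter. Marker sums that did not overlap between the genotypes were those of oocytes and germ line, at 1220 to 1390 CPM in daf-2 and 2020 to 2480 CPM in the triple mutant, of body muscle, at 1070 to 1530 and 1720 to 2140 CPM, of hypodermis, at 152 to 175 and 131 to 135 CPM, of glia, at 7.43 to 13.8 and 16.3 to 22.5 CPM, and of males, at 6.42 to 8.54 and 9.9 to 11.4 CPM. Such sums follow their most abundant members. Of the 3 tested glia markers 1 rose and 0 fell, yet their median log2 fold change was -0.39. Of the 4 body muscle and the 2 tested male markers 0 were called. Of the 5 oocyte and germ line markers 2 rose and 0 fell, and of the 3 tested hypodermis markers 0 rose and 1 fell. Defining markers below the filter were dpy-7 and rol-6 for hypodermis, mir-228 for glia, msp-10 for sperm, and clec-207 and cwp-1 for males. The part of these tissues in the results below was not tested. In RNA from whole worms, fewer cells of a type and less RNA per cell cannot be told apart.

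The mutated genes still gave transcripts. The level of spr-3 was 23.5, 25.2 and 21.2 CPM in daf-2 and 40.9, 37.9 and 42.5 CPM in the triple mutant, a rise (log2 fold change 0.80 ± 0.13, edgeR adjusted p = 0.0011). That of spr-4 was 57.8, 44.5 and 49.2 CPM in daf-2 and 35.96, 21.8 and 40.3 CPM in the triple mutant, and the difference did not pass (log2 fold change -0.63 ± 0.21, edgeR adjusted p = 0.06). Transcript amounts do not check these labels, since the kind of mutation is not known here.

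Of 18342 genes tested, 1241 (6.77%) were higher in the triple mutant and 1220 (6.65%) lower at an edgeR adjusted p under 0.05, 13.4% together. At least 2-fold changes were found for 579 of the higher and 501 of the lower genes, and the median log2 fold change over all tested genes was -0.01. Leaving out the deepest daf-2 library, replicate 3, brought the counts to 698 and 678. The other libraries whose absence moved a count by more than 1.5 times were replicate 2 of daf-2 (808 higher and 760 lower), replicate 1 of daf-2 (806 lower), and replicates 3 (805 higher and 720 lower) and 1 (776 lower) of the triple mutant. In all, 1432 of the 2461 calls (58.2%) were lost in at least 1 of the 12 fits that leave out a library. Unless another value is given, the genes named below as having risen or fallen kept their call in all 12. Of the 86 counts of 1 to 4 genes that the lists gave in either direction, 63 moved by more than 1.5 times without some library, so such counts are given as values only. Larger counts are followed by every value that a left-out library moved by more than 1.5 times.

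**Figure D1:**
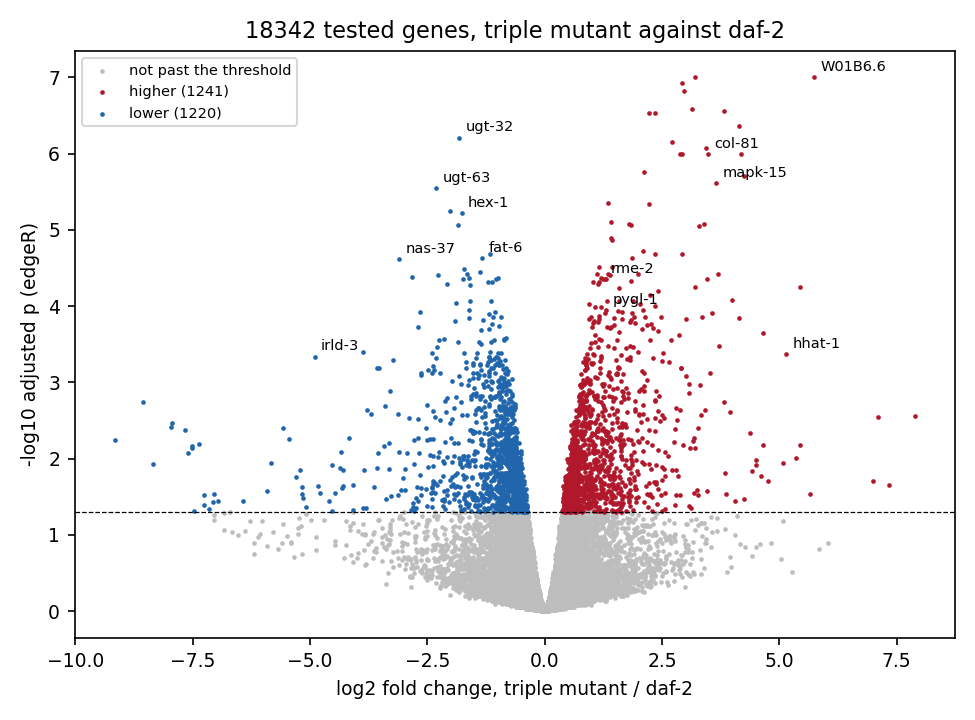
Each point is 1 of the 18342 tested genes, with its log2 fold change of the triple mutant over daf-2 on the x axis and -log10 of its edgeR adjusted p on the y axis. Red points are the 1241 higher genes, blue points the 1220 lower genes, and the dashed line is the threshold of 0.05.

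Among the strongest rises were genes that were nearly silent in daf-2. W01B6.6 was at 0.214, 0.564 and 0.409 CPM in daf-2 and 21.9, 17.5 and 21.01 CPM in the triple mutant (log2 fold change 5.74 ± 0.34, edgeR adjusted p = 1e-07). Its neighbour W01B6.5 was at 0.643, 0 and 0.593 CPM and 18.3, 19.8 and 26.6 CPM (log2 fold change 5.44 ± 0.59). Both lie in a run of 5 neighbouring tested genes that all rose, on chromosome IV from 10070202 to 10082624 of WBcel235, with W01B6.3, ttbk-4 and W01B6.4. The gene ttbk-4, of the tau tubulin kinase family, was at 1.82, 2.09 and 3.52 CPM in daf-2 and 19.8, 17.8 and 20.7 CPM in the triple mutant. W01B6.4 had 0 reads in the 3 daf-2 libraries and was at 0.514, 1.16 and 1.1 CPM in the triple mutant, at least 27.5-fold higher when 3 counts over the whole daf-2 group are taken as the floor. In this run every triple mutant library lay above every daf-2 library, as it did for 17.9% of all tested genes, while 18.1% were separated the other way, 36% together. Named genes were picked for their change in these same libraries. A lack of overlap, here and below, therefore describes them and is no further support.

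A second run of 5 rising genes lies on chromosome III, 6067857 to 6116331, and begins with mapk-15, an atypical MAP kinase gene of ciliated neurons. It was at 1.61, 1.85 and 3.48 CPM in daf-2 and 26.9, 31.3 and 32.7 CPM in the triple mutant (log2 fold change 3.65 ± 0.31, edgeR adjusted p = 2.4e-06). On chromosome I, 10643029 to 10654237, a run of 4 holds B0511.17, tag-344, fbxa-125 and B0511.11, of which B0511.17 and fbxa-125 lost their call without at least 1 library. There B0511.11 went from 6.75, 4.51 and 9.37 CPM to 52.5, 64.9 and 69.6 CPM and tag-344 from 2.5, 1.69 and 1.53 CPM to 18.5, 20.6 and 17.1 CPM. In all, 45 runs of 3 or more neighbouring genes were called in 1 direction, and they hold 146 genes, 5.93% of the calls. Within 500000 bases of spr-4, on chromosome I, 29 of 200 tested genes rose (14.5%, against 6.77% of all) and 8 fell (4%). Within the same distance of spr-3, on the X chromosome, 3 of 144 rose (2.08%) and 11 fell (7.64%). Around daf-2, mutated on both sides, 6 of 149 rose (4.03%) and 8 fell (5.37%). Shares of calls differ by chromosome, so the share of all genes is a rough measure for such windows. Over the nuclear chromosomes rises ranged from 1.94% on X to 9.36% on I, and falls from 4.37% on I to 11.1% on X. Linked differences between strains were not tested.

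Several regulators and signalling genes rose. The gene hhat-1, related to hedgehog acyltransferases, was at 0.286, 0.483 and 0.0205 CPM in daf-2 and 9.65, 7.93 and 4.04 CPM in the triple mutant (log2 fold change 5.15 ± 0.75). The gene cky-1 encodes a bHLH-PAS transcription factor related to NPAS4, an activity-dependent factor of mammalian neurons. It was at 1.79, 0.403 and 0.962 CPM in daf-2 and 9.98, 6.78 and 7.51 CPM in the triple mutant (log2 fold change 2.88 ± 0.54, edgeR adjusted p = 0.0023). The gene svh-1, a growth factor of axon regeneration, rose by 2.90 ± 0.45. The corepressor gene din-1 was at 141, 182 and 150.4 CPM and 472, 362 and 444 CPM (log2 fold change 1.43 ± 0.16). Of these genes, hhat-1, svh-1 and din-1 overlap another gene on their exons, and the library kit does not mark the strand, so that the reads of such partners cannot be told apart. The same holds for W01B6.3 above and, below, for nas-37, cpg-3, nos-2, pie-1, egg-1, rnp-8, knl-2, fer-1, cutl-7, dyf-2, tbh-1, cca-1, acr-20, nmr-2, unc-49, vha-18, spe-5, pmp-4, acs-17, lipl-4, pyk-2, cyp-34A9, fat-5, cyp-35B1, clec-88, clec-91, epi-1, agr-1 and fox-1.

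Falls of more than 4-fold were of genes of mixed function. The gene irld-3, of a family with similarity to the ligand-binding part of insulin receptors, was at 4.71, 5.96 and 4.38 CPM in daf-2 and 0.11, 0.131 and 0.239 CPM in the triple mutant (log2 fold change -4.90 ± 0.73, edgeR adjusted p = 0.00046). The C-type lectin gene clec-73 was at 5.18, 10.1 and 6.92 CPM and 0.477, 0.394 and 0.79 CPM (log2 fold change -3.71 ± 0.70). At lower levels, falls were seen for the P450 gene cyp-37B1 (-3.11 ± 0.71), the cathepsin B-like gene cpr-8 (-3.13 ± 0.59) and phat-2 (-3.42 ± 0.76), of which cyp-37B1 and phat-2 overlap another gene, and pinn-4, of the parvulin family, fell as well (-3.23 ± 0.49). The small peptide gene nspc-17 also fell (-4.36 ± 1.08), with an edgeR adjusted p of 0.076 without replicate 3 of daf-2 and 0.055 without replicate 3 of the triple mutant, and egas-3 (-3.88 ± 1.21) lost its call in 7 of the 12 fits. The moulting protease gene nas-37 was at 21.5, 26.1 and 25.7 CPM and 1.61, 3.41 and 3.42 CPM (log2 fold change -3.098 ± 0.33). The G protein alpha gene gpa-10 was at 13.4, 15.5 and 10.6 CPM and 2.2, 2.13 and 3.11 CPM, and the tyrosinase gene tyr-3 at 34.96, 51.1 and 38.8 CPM and 6.64, 6.15 and 11.1 CPM. For irld-3, clec-73, nas-37, gpa-10 and tyr-3 the groups did not overlap, which was also a condition for naming genes by size of change. E02H4.8 was at 96.9, 21.9 and 37.4 CPM in daf-2 and 2.31, 5.83 and 3.16 CPM in the triple mutant, with daf-2 replicate 1 far above the other 2. Among the called genes of highest mean CPM, the long non-coding RNA tts-1, known from daf-2 mutants, fell from 2399, 1987 and 3022 CPM to 1417, 1591 and 1375 CPM. The ferritin gene ftn-1 fell from 1601, 1312 and 1808 CPM to 726, 970.1 and 748 CPM.

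Many genes of the oocyte and eggshell rose. Of the list for oocyte, eggshell and early embryo, 21 of 45 tested members rose and 1 fell (46.7% higher), with a median log2 fold change of 0.42. The number that rose was 9 without replicate 3 of daf-2 and 12 without replicate 1 of the triple mutant. The summed level of the list was 27100, 24200 and 22600 CPM in daf-2 and 27000, 28100 and 25500 CPM in the triple mutant, and these ranges overlap. The yolk receptor gene rme-2, through which oocytes take up yolk, was at 482, 516 and 457 CPM in daf-2 and 1183, 1017 and 1323 CPM in the triple mutant (log2 fold change 1.28 ± 0.15, edgeR adjusted p = 4.4e-05). The eggshell proteoglycan gene cpg-3 was at 861, 688 and 721 CPM and 1268, 1483 and 1404 CPM (log2 fold change 0.87 ± 0.14). The 3 triple mutant libraries lay above the 3 daf-2 libraries for each of these genes. The RNA-binding regulators of oocyte transcripts puf-7 (0.87 ± 0.14), oma-1 (0.69 ± 0.14) and nos-2 (0.88 ± 0.13) rose. So did pie-1 (0.82 ± 0.16), a repressor of transcription in germ line blastomeres, and egg-1 (0.79 ± 0.15), needed for fertilisation. The member that fell was the caveolin gene cav-1, at 88.8, 64.3 and 71.2 CPM in daf-2 and 37.6, 45.5 and 38.2 CPM in the triple mutant.

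Genes of earlier germ line stages rose too. Among the genes of meiosis and the germ line, 11 of 34 tested members rose and 0 fell (32.4% higher, median 0.31), and the rises numbered 5 without replicate 3 of daf-2, 7 without replicate 1 of the triple mutant and 6 without replicate 3 of the triple mutant. Their summed level was 2510, 2600 and 2360 CPM in daf-2 and 3510, 3110 and 3530 CPM in the triple mutant, without overlap. The level of sygl-1, a Notch target that keeps germ line stem cells, was 86.8, 77.6 and 79.96 CPM in daf-2 and 173, 213 and 203 CPM in the triple mutant (log2 fold change 1.27 ± 0.21, edgeR adjusted p = 0.001). The synaptonemal complex gene syp-2 was at 62.6, 53.8 and 54.98 CPM and 97.8, 107.7 and 113 CPM (log2 fold change 0.89 ± 0.14). The nuclear Argonaute gene hrde-1, which carries inherited silencing in the germ line, was at 75.2, 62.1 and 58.8 CPM and 179, 107 and 160.5 CPM (log2 fold change 1.19 ± 0.19). The PUF gene fbf-2 (0.91 ± 0.19) and rnp-8 (0.90 ± 0.17), a partner of a cytoplasmic poly(A) polymerase, rose as well. Of genes for DNA replication and cell division, 7 of 47 tested members rose and 1 fell, the rises being 4 without replicate 1 of daf-2, 3 without replicate 3 of daf-2 and 4 without replicate 1 or 3 of the triple mutant. Among them cdk-1, the mitotic kinase, rose by 0.59 ± 0.13, the B-type cyclin gene cyb-2.1 by 0.72 ± 0.13 and the kinetochore gene knl-2 by 0.86 ± 0.17.

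Sperm genes did not move as a unit. Of the sperm list, 8 of 25 tested members rose and 2 fell, with a median of -0.12, and the rises were 5 without replicate 1 of daf-2, 4 without replicate 3 of daf-2 and 5 without replicate 3 of the triple mutant. The membrane fusion gene fer-1 was at 8.11, 13.2 and 9.53 CPM in daf-2 and 32.8, 18.3 and 28.7 CPM in the triple mutant (log2 fold change 1.39 ± 0.23). The presenilin-like gene spe-4 was at 2.82, 3.06 and 3.29 CPM and 10.8, 7.28 and 9.5 CPM (log2 fold change 1.58 ± 0.25), and smz-1 rose by 0.997 ± 0.15. Against these, ssp-16 was at 6.5, 5.31 and 8.53 CPM in daf-2 and 1.1, 0.946 and 1.51 CPM in the triple mutant. Major sperm protein genes, whose summed level was low at 33.9, 39.9 and 54.1 CPM in daf-2 and 13.7, 15.3 and 15.9 CPM in the triple mutant, had 0 rises and 7 falls among 25 tested. These genes are near-identical copies, so the split of reads between them is uncertain, and the falls were 2 without replicate 1 of daf-2, 3 without replicate 2 of daf-2, 0 without replicate 3 of daf-2, 1 without replicate 1 of the triple mutant and 2 without replicate 2 or 3 of the triple mutant. Of 20 small RNA Argonaute genes 5 rose and 5 fell. The rises were 3 without replicate 3 of N2, 3 without replicate 1 of daf-2, 1 without replicate 3 of daf-2, 2 without replicate 1 of the triple mutant and 3 without replicate 3 of the triple mutant, and the falls 2 without replicate 1 or 3 of daf-2, 1 without replicate 2 of daf-2, 2 without replicate 2 of the triple mutant and 0 without replicate 3 of the triple mutant. The spermatogenesis Argonaute genes alg-3 (log2 fold change -2.17 ± 0.52) and alg-4 (-1.97 ± 0.47) were among those that fell. When replicate 2 of daf-2 was left out their edgeR adjusted p was 0.062 and 0.06, and when replicate 3 of the triple mutant was left out 0.052 and 0.053.

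**Figure D2:**
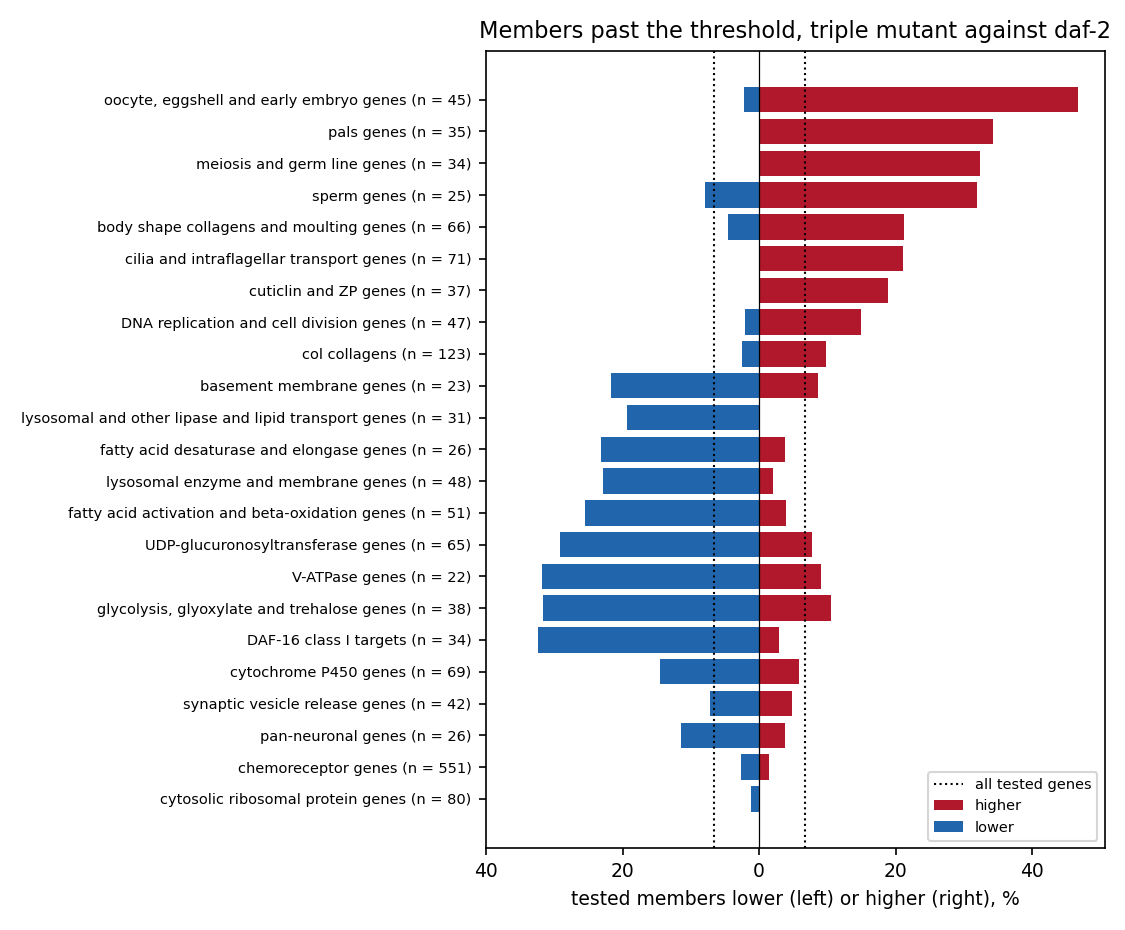
Bars give the percent of each list's tested members (n in brackets) that were higher (red, right) or lower (blue, left) in the triple mutant. Dotted lines mark the percent of all tested genes, 6.77% higher and 6.65% lower. Oocyte genes reach 46.7% higher, and genes of sugar, lipid and lysosomal metabolism extend to the lower side.

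Some cuticle genes, which are mostly expressed in pulses during larval moults, rose. Of body shape collagens and moulting genes, 14 of 66 tested members rose and 3 fell (21.2% higher, median 0.36). The collagen gene col-81 was at 8.68, 5.96 and 4.73 CPM in daf-2 and 66.1, 89.5 and 59.3 CPM in the triple mutant (log2 fold change 3.48 ± 0.28, edgeR adjusted p = 1e-06). The pharyngeal cuticle gene abu-14 was at 4.68, 4.67 and 4.71 CPM and 36.7, 38.2 and 32.7 CPM, the highest daf-2 library being well below the lowest of the triple mutant. The collagen genes sqt-1 (2.92 ± 0.46), sqt-2 (2.17 ± 0.36) and dpy-9 (1.67 ± 0.29) rose, as did fkb-4 (2.96 ± 0.19), which encodes a prolyl isomerase, and nhr-23 (1.02 ± 0.22), a nuclear receptor gene that drives moulting. Among all col collagens 12 of 123 tested members rose and 3 fell, yet their summed level was 26600, 22000 and 22200 CPM in daf-2 and 20100, 26500 and 16900 CPM in the triple mutant, and these ranges overlap. Of cuticlin and ZP domain genes, 7 of 37 tested members rose and 0 fell, and cutl-7 went from 1.0, 0 and 0.0409 CPM to 8.81, 8.43 and 7.9 CPM. Falls among the moulting genes were nas-37, tyr-3 and the hedgehog-related gene wrt-10 (-1.21 ± 0.27).

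Some genes that build cilia, which hermaphrodites carry on sensory neurons alone, also rose. Of the cilia and intraflagellar transport list, 15 of 71 tested members rose and 0 fell (21.1% higher), and the median was 0.61. The rises were 8 without replicate 1 of daf-2 and 8 without replicate 3 of the triple mutant. The transition zone gene mks-5 was at 3.68, 2.82 and 2.46 CPM in daf-2 and 13.6, 14.3 and 22.2 CPM in the triple mutant (log2 fold change 2.49 ± 0.32, edgeR adjusted p = 0.00014). The transport genes ift-74 (2.11 ± 0.36), dyf-2 (1.19 ± 0.22) and dyf-3 (0.68 ± 0.15) rose. So did dyf-7, which anchors the tips of sensory dendrites, at 13.9, 9.26 and 9.33 CPM and 27.4, 25.6 and 23.8 CPM. Summed over the list, the level was 575, 591 and 570 CPM in daf-2 and 832, 828 and 882 CPM in the triple mutant, and the groups did not overlap. The list for sensory signalling in the same neurons had 2 rises and 1 fall among 46 tested.

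Neural genes outside cilia changed in small numbers. Among 42 genes of synaptic vesicle release there were 2 rises and 3 falls, of 26 pan-neuronal genes 1 rose and 3 fell, and of 551 chemoreceptor genes 8 rose and 15 fell, shares near or under those of all genes apart from the 11.5% of pan-neuronal genes that fell. The chemoreceptor rises were 3 without replicate 1 of daf-2, 4 without replicate 2 or 3 of daf-2 and 4 without replicate 1 or 3 of the triple mutant, and the falls 9 without replicate 2 or 3 of daf-2. Other settings gave 6 to 25 chemoreceptor rises and 13 to 27 falls. Of 36 monoamine signalling genes 0 rose and 4 fell (11.1%, from 3 to 6 without single libraries), and their summed level was 910, 806 and 844 CPM in daf-2 and 588, 627 and 560 CPM in the triple mutant, without overlap. That sum follows its most abundant members, among them tbh-1 below. The median log2 fold change of the list was -0.255, and 15 of the 36 members were higher in the triple mutant. Of 28 DEG/ENaC channel genes 2 rose and 4 fell (14.3%, from 2 to 4 without single libraries). Falls included the SNARE regulator unc-18 (-0.60 ± 0.12), ric-4 (-1.03 ± 0.21), of the SNAP-25 family, and the neuropeptide convertase gene egl-3 (-0.63 ± 0.15). The level of glc-1, which encodes a chloride channel opened by glutamate, was 196, 238 and 205 CPM in daf-2 and 77.4, 99.8 and 99.6 CPM in the triple mutant (log2 fold change -1.21 ± 0.14, edgeR adjusted p = 4.8e-05). The octopamine synthesis gene tbh-1 was at 382, 338 and 335 CPM and 204, 189.9 and 158 CPM (log2 fold change -0.94 ± 0.14), and no libraries of the groups overlapped for either gene. The neuropeptide gene flp-6 (-1.38 ± 0.21) and the T-type calcium channel gene cca-1 (-1.003 ± 0.21) fell. Rises included the acetylcholine receptor gene acr-20, at 2.82, 2.58 and 2.5 CPM and 11.04, 12.7 and 10.8 CPM, the NMDA receptor gene nmr-2 (1.36 ± 0.29) and the GABA receptor gene unc-49 (0.70 ± 0.16). The 5 neuron markers together were at 188, 169 and 201 CPM in daf-2 and 161, 170 and 153 in the triple mutant, which overlap.

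Some genes of lysosomes fell. Of the lysosomal list 1 of 48 tested members rose and 11 fell (22.9% lower, median -0.22), and the falls were 6 without replicate 3 of daf-2 and 7 without replicate 3 of the triple mutant. The hexosaminidase gene hex-1 was at 727, 612 and 532 CPM in daf-2 and 182, 192 and 176 CPM in the triple mutant (log2 fold change -1.77 ± 0.16, edgeR adjusted p = 6e-06). The aspartic protease gene asp-6 was at 1003, 1009 and 1128 CPM and 464, 632 and 495 CPM (log2 fold change -0.98 ± 0.17). The cathepsin gene cpr-5 was at 64.9, 63.6 and 54.3 CPM and 14.5, 26.9 and 16.13 CPM (log2 fold change -1.67 ± 0.26). The groups were apart for all 3 of these genes. Of the V-ATPase, the pump that acidifies lysosomes, 2 of 22 tested members rose and 7 fell. Its falls, among them vha-3 and vha-12, numbered 4 without replicate 1 or 3 of daf-2, 2 without replicate 2 of daf-2 and 3 without replicate 2 or 3 of the triple mutant, while the rises were vha-18 (0.55 ± 0.11) and spe-5 (0.81 ± 0.19), the latter needed in sperm. Some genes of the intestine list fell beside these and those of the lipid and detoxification lists below. Of that list 2 of 33 tested members rose and 5 fell (15.2% lower), the falls being 3 without replicate 1 or 3 of daf-2, 1 without replicate 1 of the triple mutant and 3 without replicate 3 of the triple mutant. Its summed level was 3680, 3140 and 3720 CPM in daf-2 and 2250, 2970 and 2120 CPM in the triple mutant, without overlap, whereas that of the 5 short intestine markers was 79.1 to 95.9 and 65.9 to 89.1 CPM. The part of the intestine in these falls was not tested.

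Lipid genes fell at several steps of metabolism, in numbers that single libraries move. Of fatty acid activation and beta-oxidation genes 2 of 51 tested members rose and 13 fell (25.5% lower), with falls of 7 without replicate 2 or 3 of daf-2, 8 without replicate 1 or 2 of the triple mutant and 7 without replicate 3 of the triple mutant. The peroxisomal acyl-CoA oxidase gene acox-3 was at 81.9, 87.7 and 89.4 CPM in daf-2 and 36.7, 44.96 and 36.8 CPM in the triple mutant (log2 fold change -1.13 ± 0.13, edgeR adjusted p = 4.8e-05). The peroxisomal transporter gene pmp-4 (-0.91 ± 0.16), the acyl-CoA synthetase gene acs-17 (-0.92 ± 0.19) and the carnitine palmitoyltransferase gene cpt-3 (-0.78 ± 0.16) fell, and acs-6 (1.78 ± 0.38) rose. Of desaturase and elongase genes 1 of 26 tested members rose and 6 fell, or 3 without replicate 3 of daf-2 for the falls. The desaturase gene fat-6 was at 302, 291 and 292 CPM and 131, 103.2 and 118 CPM, and fat-4 at 142, 138.5 and 145 CPM and 93.2, 83.4 and 92.6 CPM. Of lipase and lipid transport genes 0 of 31 tested members rose and 6 fell, and the falls were 3 without replicate 1 or 3 of daf-2, 3 without replicate 1 of the triple mutant and 2 without replicate 3 of the triple mutant. The lysosomal lipase gene lipl-4, tied to long life in germ line-less worms, was at 96.8, 102.6 and 102 CPM in daf-2 and 41.3, 41.4 and 51.3 CPM in the triple mutant.

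In sugar metabolism the members parted. Of glycolysis, glyoxylate and trehalose genes 4 of 38 tested members rose and 12 fell (31.6% lower), the falls being 6 without replicate 1 of daf-2, 7 without replicate 2 or 3 of daf-2, 7 without replicate 2 of the triple mutant and 5 without replicate 3 of the triple mutant. The glycogen phosphorylase gene pygl-1 was at 622, 653 and 531 CPM in daf-2 and 1492, 1332 and 1652 CPM in the triple mutant (log2 fold change 1.31 ± 0.17, edgeR adjusted p = 0.00011). The lactate dehydrogenase gene ldh-1 rose too (0.77 ± 0.13). Falls were seen for pck-1 (-0.72 ± 0.14), the entry enzyme of gluconeogenesis, the pyruvate kinase gene pyk-2 (-0.81 ± 0.17), the trehalose phosphatase gene gob-1 (-0.78 ± 0.13), the trehalase gene tre-3 (-0.80 ± 0.18) and the acid glucosidase gene aagr-2 (-0.98 ± 0.13). The propionate carboxylase gene pcca-1 fell (-0.57 ± 0.13), and acdh-1, of the propionate shunt, was at 7.71, 4.35 and 4.81 CPM in daf-2 and 17.4, 23.8 and 18.9 CPM in the triple mutant (log2 fold change 1.82 ± 0.24).

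Among detoxification genes more fell than rose. Of UDP-glucuronosyltransferase genes, which couple small molecules to sugars, 5 of 65 tested members rose and 19 fell (29.2% lower, median -0.38). The falls numbered 12 without replicate 3 of daf-2 and 12 without replicate 1 of the triple mutant, and the rises 3 without replicate 3 of daf-2. The gene ugt-32 was at 171, 163 and 146 CPM in daf-2 and 40.9, 41.7 and 52.9 CPM in the triple mutant (log2 fold change -1.82 ± 0.14, edgeR adjusted p = 6.2e-07), and ugt-63 at 122, 111 and 97.1 CPM and 18.2, 26.2 and 21.9 CPM (log2 fold change -2.31 ± 0.20). Neither pair of groups overlapped. Of cytochrome P450 genes 4 of 69 tested members rose and 10 fell, and cyp-34A9 was at 636, 643 and 663 CPM and 265, 316 and 278 CPM. The flavin monooxygenase gene fmo-2, which lengthens life when overexpressed, rose, from 11.6, 10.1 and 11.9 CPM to 29.98, 30.8 and 28.8 CPM (log2 fold change 1.41 ± 0.13, edgeR adjusted p = 7.9e-06).

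Of 34 class I targets of DAF-16, genes known to be raised in daf-2 mutants, 11 fell (32.4%) and 1 rose, and the falls were 7 without replicate 2 or 3 of daf-2 and 7 without replicate 1 or 3 of the triple mutant. They included ftn-1, fat-5, lipl-4, the lysozyme gene lys-7 (-1.12 ± 0.23), the linker histone gene hil-1 (-0.84 ± 0.17) and cyp-35B1 (-0.81 ± 0.16). Of 16 class II genes, known to be lowered in daf-2 mutants, 1 rose and 2 fell. The transcript of daf-16 itself was at 101, 127 and 103.5 CPM in daf-2 and 91.2, 89.6 and 83.7 CPM in the triple mutant and did not pass (log2 fold change -0.33 ± 0.13, edgeR adjusted p = 0.1). In the insulin/IGF-1 pathway 0 of 21 tested members rose and 4 fell. The insulin receptor substrate gene ist-1 was at 16.46, 14.98 and 11.6 CPM and 5.61, 4.15 and 7.2 CPM, and the kinase gene akt-2 at 42.6, 49.9 and 52.5 CPM and 31.6, 32.6 and 30.2 CPM. Among 35 insulin-like peptide genes 3 rose and 3 fell (8.57% each, against 6.77 and 6.65% of all tested genes). Those that rose, ins-3, ins-4 and ins-5, lie within a few kilobases on chromosome II, though ins-4 lost its call in 5 of the 12 fits. The level of ins-5 was 2.96, 1.69 and 3.03 CPM in daf-2 and 13.02, 11.8 and 12.5 CPM in the triple mutant (log2 fold change 2.24 ± 0.32).

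**Figure D3:**
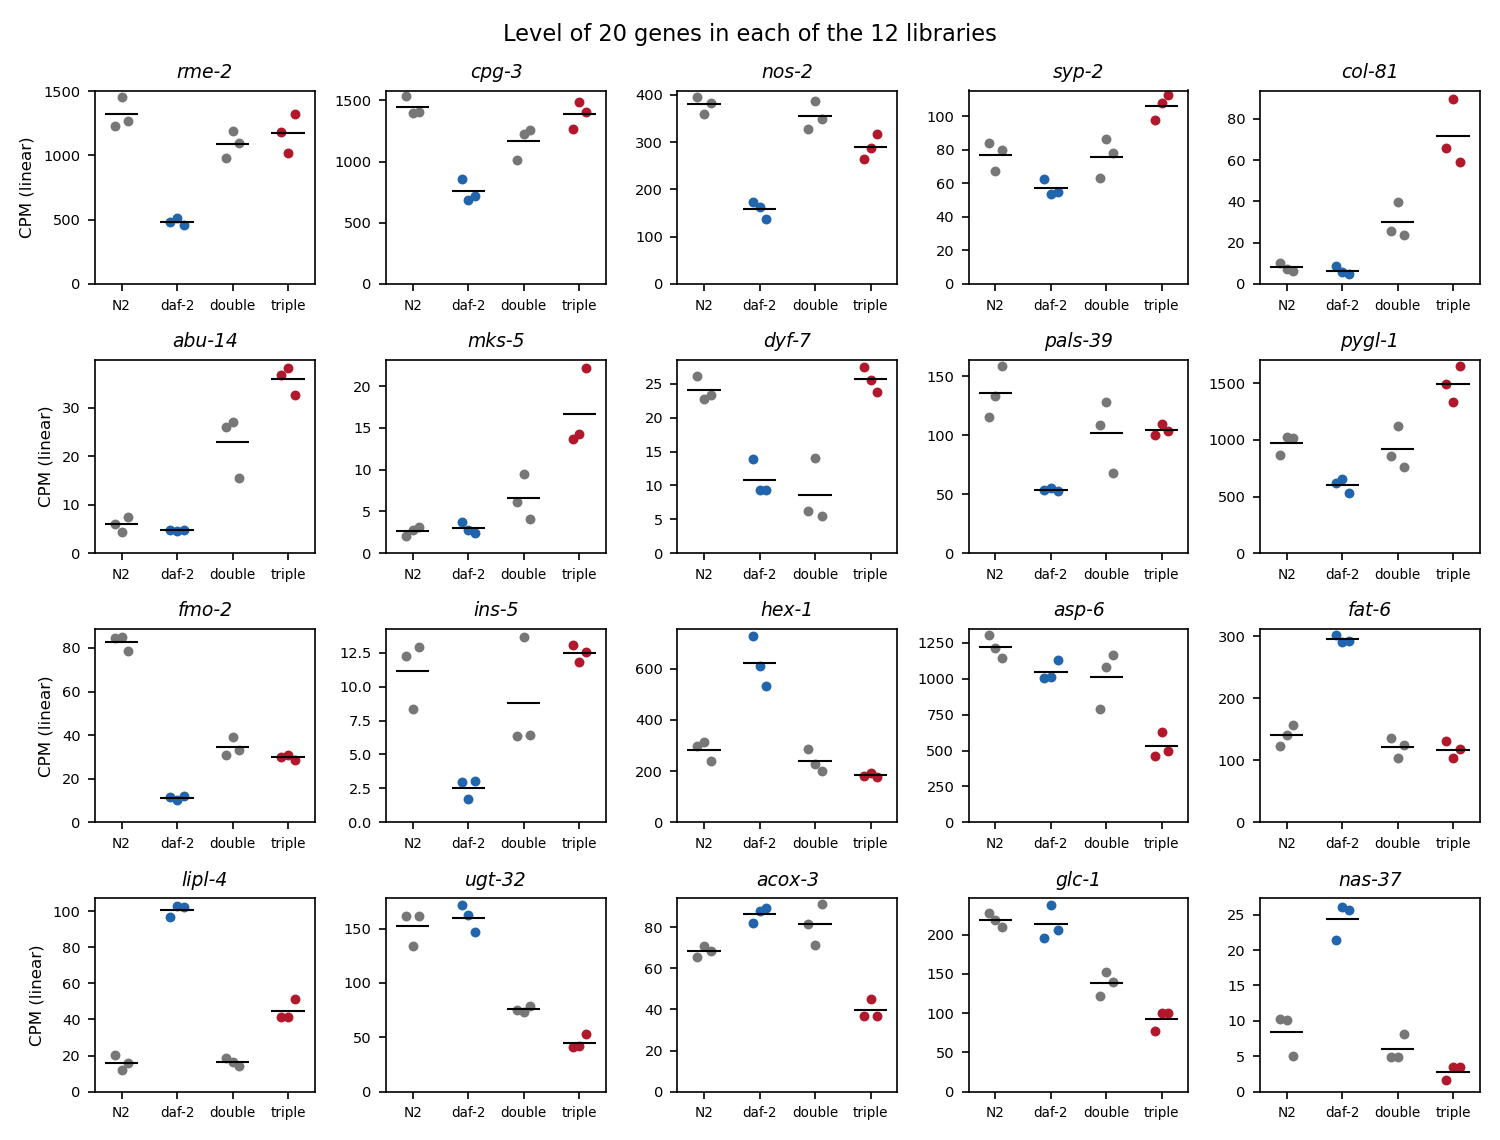
Each panel shows the level of 1 gene in CPM on a linear axis from 0, with a point for each library and a bar at the mean of the 3 libraries of N2, daf-2, the double and the triple mutant. The 20 genes were picked from those called in the triple mutant against daf-2. For all of them the 3 triple mutant points (red) lie outside the range of the 3 daf-2 points (blue). The same holds for 36% of all tested genes.

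The pals genes, a family tied to the response to intracellular pathogens, moved upward where they moved. Of 35 tested members 12 passed upward (34.3%) and 0 downward, with a median of 0.87. The rises were 7 without replicate 3 of daf-2. The gene pals-39 was at 53.7, 55.3 and 52.5 CPM in daf-2 and 100.1, 109.8 and 103.7 CPM in the triple mutant (log2 fold change 0.96 ± 0.18, edgeR adjusted p = 0.0028), and pals-14 at 8.68, 5.31 and 7.2 CPM and 22.9, 19.8 and 18.95 CPM. Summed over the family the level was 440, 447 and 423 CPM in daf-2 and 679, 689 and 666 CPM in the triple mutant. Of a list of innate immune genes, which also holds pals-5, 5 of 59 tested members rose and 6 fell (8.47 and 10.2%). The immune rises were 2 without replicate 1 of daf-2, 3 without replicate 2 or 3 of daf-2 and 3 without replicate 3 of the triple mutant. The immune falls were 3 without replicate 3 of daf-2 and 3 without replicate 1 or 3 of the triple mutant. The infection response gene irg-5 was at 14.3, 12.9 and 15.8 CPM and 4.07, 2.18 and 2.73 CPM (log2 fold change -2.27 ± 0.25). Of C-type lectin genes 11 of 157 tested members rose and 7 fell (7.01 and 4.46%), near or under the 6.77 and 6.65% of all tested genes. Among those that rose were clec-88 and clec-91 (0.89 ± 0.16 and 0.96 ± 0.16). The lectin rises were 6 without replicate 2 or 3 of daf-2, and the falls 13 without replicate 1 of the double mutant and 11 without replicate 2 of the double mutant, so that which direction held more genes depends on the libraries. Other settings gave 9 to 18 lectin rises and 7 to 20 falls. Of the large F-box A family 13 of 280 tested members rose and 21 fell (4.64 and 7.5%), again near or under the shares of all tested genes. The rises were 7 without replicate 1 of daf-2, 8 without replicate 2 of daf-2, 5 without replicate 3 of daf-2, 6 without replicate 1 of the triple mutant and 8 without replicate 3 of the triple mutant, and the falls 12 without replicate 1 of daf-2 and 13 without replicate 3 of the triple mutant.

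Signalling and matrix genes changed one by one. The Frizzled receptor gene mig-1 was at 25.7, 33.5 and 33.6 CPM in daf-2 and 7.96, 12.8 and 9.76 CPM in the triple mutant (log2 fold change -1.599 ± 0.20, edgeR adjusted p = 8.5e-05), and the Wnt gene lin-44 at 27.1, 30.1 and 24.98 CPM and 58.4, 53.5 and 58.1 CPM (log2 fold change 1.05 ± 0.16). Of basement membrane genes 2 of 23 tested members rose and 5 fell, the falls being 3 without replicate 1 or 2 of daf-2 and 3 without replicate 1 or 3 of the triple mutant. The laminin genes lam-1, at 84.5, 107 and 67.2 CPM and 41.3, 22.4 and 19.3 CPM, and epi-1, at 105.3, 142 and 102 CPM and 75.9, 36.1 and 57.5 CPM, fell, and the agrin gene agr-1 rose (1.22 ± 0.26). The hypoxia factor gene hif-1 fell from 142, 155 and 136 CPM to 92.7, 84.3 and 101 CPM. Among 65 histone modifying and silencing genes 7 rose and 4 fell (10.8 and 6.15%, against 6.77 and 6.65% of all tested genes). The rises were 4 without replicate 1 or 3 of daf-2, 3 without replicate 1 of the triple mutant and 4 without replicate 3 of the triple mutant. The gene cec-3, a reader of methylated histone H3, was up (0.65 ± 0.14) and mes-3, of the Polycomb-like complex, down (-0.75 ± 0.15).

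Stress and epidermal genes gave scattered falls. Of epidermal antimicrobial peptide genes and their regulators 0 of 29 tested members rose and 5 fell, or 3 without replicate 1 of daf-2, 2 without replicate 3 of daf-2 and 2 without replicate 1 of the triple mutant for the falls. The receptor gene dcar-1, which acts in the response of the epidermis to damage, was at 34.6, 42.2 and 35.3 CPM in daf-2 and 15.6, 19.7 and 15.005 CPM in the triple mutant (log2 fold change -1.15 ± 0.18), and the peptide gene nlp-25 at 41.9, 30.1 and 44.7 CPM and 16.7, 19.8 and 17.6 CPM. For both, all daf-2 libraries were higher. The homeobox gene dve-1, a factor of the mitochondrial stress response, fell (-1.21 ± 0.25), as did smf-1 (-0.78 ± 0.16), a manganese transporter gene, and sel-1 (-0.54 ± 0.13), of protein degradation at the endoplasmic reticulum. Of 27 heat shock protein genes 1 rose and 1 fell (3.7% each), under the 6.77 and 6.65% of all tested genes. Of 29 longevity transcription factors 2 rose and 3 fell (6.9 and 10.3%), not far from the shares of all tested genes. Among those that fell were hif-1 and the zinc finger gene pqm-1, the latter at 43.1, 47.3 and 56.3 CPM in daf-2 and 26.9, 35.4 and 24.003 CPM in the triple mutant.

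Larger families are read against all tested genes, of which 6.77% were higher and 6.65% lower. The shares higher and lower were 9.68 and 19.4% for astacin, 9.3 and 11.6% for TWK channel and 11.9 and 14.3% for ABC transporter genes. They were 18.2 and 6.06% for histone and 7.55 and 0% for ceh homeobox genes. The shares of nuclear hormone receptor genes were under those of all genes. Of nuclear hormone receptor genes 9 rose and 14 fell, 4.04% and 6.28% of those tested. The rises were 4 without replicate 1 of daf-2, 5 without replicate 3 of daf-2 and 4 without replicate 3 of the triple mutant, and the falls 7 without replicate 2 of daf-2, 4 without replicate 3 of daf-2, 9 without replicate 1 of the triple mutant, 6 without replicate 2 of the triple mutant and 8 without replicate 3 of the triple mutant. Of 31 astacin protease genes 3 rose and 6 fell, nas-22 (-1.72 ± 0.25) and nas-20 (-1.57 ± 0.28) beside nas-37. Of 43 TWK potassium channel genes 4 rose and 5 fell, the falls being 2 without replicate 2 of daf-2, 2 without replicate 1 of the triple mutant and 3 without replicate 2 of the triple mutant, and twk-33 was at 9.5, 7.97 and 8.96 CPM in daf-2 and 3.56, 1.86 and 1.2 CPM in the triple mutant. Of 42 ABC transporter genes 5 rose and 6 fell, wht-3 rising (1.73 ± 0.30) and pgp-9 falling (-1.49 ± 0.28). The ABC transporter rises were 3 without replicate 1 of daf-2 and 3 without replicate 1 or 3 of the triple mutant, and the falls 3 without replicate 1 of daf-2, 1 without replicate 2 of daf-2, 3 without replicate 3 of the double mutant, 2 without replicate 1 of the triple mutant, 1 without replicate 2 of the triple mutant and 3 without replicate 3 of the triple mutant. Of 33 histone genes 6 rose and 2 fell, which include near-identical copies whose reads the counting may split, and the rises were 3 without replicate 2 of daf-2 and 2 without replicate 3 of daf-2. The histone H3 gene his-70 was at 4.18, 2.74 and 4.91 CPM and 0.22, 0.446 and 0.311 CPM, and the groups did not overlap. Of 53 ceh homeobox genes 4 rose and 0 fell, among them ceh-45 (1.19 ± 0.24).

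Some lists held few or no calls. Of 80 cytosolic ribosomal protein genes 0 rose and 1 fell, of 33 proteasome subunit genes 1 rose and 0 fell, and of 45 nuclear genes of the respiratory chain 0 rose and 2 fell. The 6 yolk protein genes and 14 tubulin genes had 0 calls by edgeR, and 0 and 1 of them had an unadjusted p under 0.05.

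Genes of the X chromosome stood lower. Worms keep X expression in check in hermaphrodites through a dosage compensation complex, and genes of the germ line are rare on the X. Of 2528 tested X genes 49 rose (1.94%) and 280 fell (11.1%), with a median log2 fold change of -0.21, while of 15670 autosomal genes 7.56% rose and 5.93% fell, with a median of 0.02. Without single libraries the X falls ranged from 155 to 315. They were 155 without replicate 3 of the triple mutant, and 173, 173 and 180 without replicates 1, 2 and 3 of daf-2. The X rises were 25 without replicate 3 of daf-2, and 31 and 30 without replicates 1 and 3 of the triple mutant. In the fit lacking double mutant replicate 2 they were 83. The falls were spread along the chromosome, at 10.7, 11.9 and 10.5% of genes in its left, middle and right parts of equal length. X genes fell more often than autosomal ones in the 3 upper of 4 equal classes of level (6.18 against 5.02%, 18.3 against 8.04% and 20.6 against 8.88%) and not in the lowest (1.37 against 1.63%). They rose less often in all 4 classes, from the lowest up at 0.609 against 1.06%, 2.21 against 7.68%, 2.0 against 10.3% and 3.27 against 10.9%.

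For each library the median log2 level of 2346 X protein-coding genes was set against that of 14358 autosomal ones, each gene relative to its mean over the 12 libraries. The difference was 0.079, 0.059 and -0.011 in daf-2 and -0.165, -0.125 and -0.192 in the triple mutant. It thus fell by 0.203, from a mean of 0.042 ± 0.047 to -0.160 ± 0.034 (SD, n = 3 each), with no overlap (exact permutation test, two-sided, p = 0.1, the smallest that 3 against 3 allows). In libraries that take no part in that comparison, it was 0.174, 0.143 and 0.158 in N2 and -0.018, 0.024 and -0.087 in the double mutant, again with no overlap (exact p = 0.1). A link between the X difference and the germ line lists was not tested, and levels of these lists are given beside it. The summed level of the oocyte list was 39700 to 43100 CPM in N2, 22600 to 27100 in daf-2, 29000 to 36000 in the double and 25500 to 28100 in the triple mutant, and in the double mutant 4 of its genes rose and 2 fell. That of the meiosis list was 2270 to 2700 CPM in N2 and 2500 to 2660 in the double mutant, which overlap. In the double mutant 7 of the 34 tested meiosis genes rose and 1 fell, with a median log2 fold change of 0.23. Of the 47 genes for DNA replication and cell division 7 rose there and 0 fell. Over the 19 lists for nerve, muscle, gut, skin and similar body tissues, 14 of 173 X members fell (8.09%, median -0.18), against 29 of 574 autosomal members (5.05%, median 0.08). Rises in these lists were 3 of the 173 X members (1.73%) and 50 of the 574 autosomal members (8.71%). Of 16 dosage compensation genes 1 rose and 3 fell, the falls being dpy-27, a condensin subunit gene of the complex (-0.78 ± 0.18), and sex-1 (-0.91 ± 0.17) and fox-1 (-0.89 ± 0.18), which count X chromosomes in the early embryo.

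**Figure D4:**
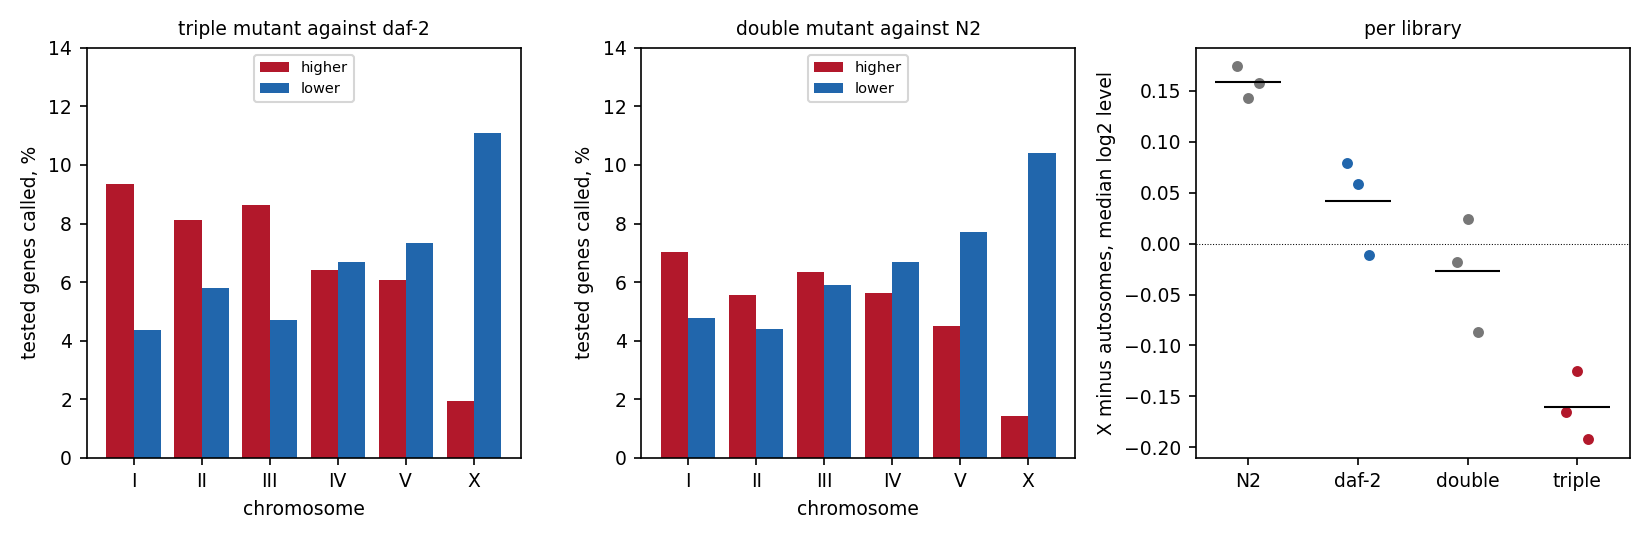
Left and middle panels give the percent of tested genes on each chromosome that were higher (red) or lower (blue), for triple mutant over daf-2 on the left and double mutant over N2 in the middle. The right panel gives, for each of the 12 libraries, the median log2 level of X genes minus that of autosomal genes, with a bar at the mean, and the triple mutant lies lowest at -0.192 to -0.125.

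The genes spr-3 and spr-4 are also mutated in the double mutant, whose comparison with N2 shares no library with that above. There 930 genes (5.07%) were higher and 1211 (6.6%) lower. Without replicate 2 of the double mutant these counts were 1154 and 1985, and without its replicate 3 they were 394 and 549. The overlaps that follow rest on these calls. Of the genes that rose in the triple mutant, 280 also rose there, 22.6% of the triple mutant rises and 30.1% of the double mutant rises. Of those that fell, 227 also fell, 18.6% and 18.7% of each list. Another 148 were called in opposite directions, 43 of them falling in the triple and rising in the double mutant. Across all 18342 genes, which are not independent replicates, the fold changes correlated at r = 0.217, and 53.5% had the same sign. Over the 2461 genes called in the triple mutant, picked for their change there, r was 0.535 and 62.6% had the same sign. W01B6.6, at 0.15, 0.361 and 0.136 CPM in N2 and 15.8, 15.002 and 10.9 CPM in the double mutant, rose there by 5.96 ± 0.36. The level of mapk-15 was 1.88, 1.18 and 1.19 CPM in N2 and 20.3, 17.996 and 10.5 CPM in the double mutant (log2 fold change 3.52 ± 0.32).

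Whether the difference that goes with the spr mutations depended on the background was tested as an interaction. The interaction is the log2 fold change in the daf-2 background minus that in the background with daf-2 intact. It passed for 897 genes upward and 629 downward (8.32% of those tested, 4.89% and 3.43%), among them 828 (33.6%) of the triple mutant calls. Without single libraries the counts ranged from 504 to 1569 and from 268 to 936. Both highest counts came without replicate 2 of the double mutant, and both lowest without replicate 3 of daf-2. Of 181 named genes with an interaction call 82 lost it without at least 1 library, and the interaction calls given below held in all 12 fits. The yolk receptor gene rme-2 changed by -0.27 ± 0.14 in the double mutant (interaction 1.55 ± 0.20, edgeR adjusted p = 0.00073). The glycogen phosphorylase gene pygl-1 changed by -0.08 ± 0.16 there (interaction 1.39 ± 0.23), and fmo-2 by -1.26 ± 0.13 (interaction 2.67 ± 0.19). On the falling side, hex-1 changed by -0.25 ± 0.16 (interaction -1.52 ± 0.23, edgeR adjusted p = 0.0015), acox-3 by 0.26 ± 0.13 (interaction -1.38 ± 0.18) and fat-6 by -0.21 ± 0.14 (interaction -1.12 ± 0.20). For dyf-7 the double mutant stood -1.49 ± 0.28 from N2, opposite to its rise over daf-2 (interaction 2.73 ± 0.39).

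**Figure D5:**
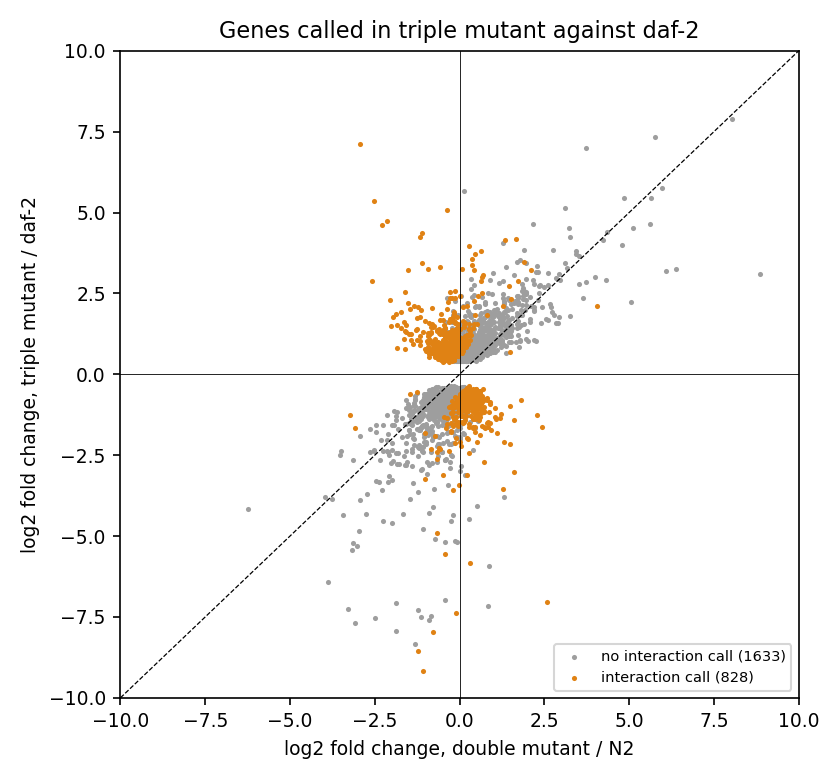
Each point is a gene called in the triple mutant against daf-2, with its log2 fold change there on the y axis and in the double mutant against N2 on the x axis. The dashed line marks equal changes, and orange points are the 828 genes with an interaction call.

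Levels in N2 place these changes beside those of daf-2 itself, although the daf-2 libraries are shared with the results above. That comparison called 20.6% of genes, 9.58% higher and 11% lower in daf-2. The level of rme-2 in N2 was 1230.0, 1454 and 1269 CPM, above daf-2 (log2 fold change of daf-2 over N2 -1.44 ± 0.15, edgeR adjusted p = 3.1e-06). That of lipl-4 in N2 was 20.4, 11.8 and 15.8 CPM, far below daf-2 (2.65 ± 0.18). For hex-1 it was 299.7, 313 and 240.4 CPM, also below daf-2 (1.13 ± 0.16). For other genes daf-2 and N2 did not differ past the threshold. The level of col-81 was 10.3, 7.44 and 6.22 CPM in N2 (-0.31 ± 0.26, edgeR adjusted p = 0.46) and glc-1 at 227, 218.2 and 209 CPM (-0.04 ± 0.14, edgeR adjusted p = 0.89).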

How the data were processed

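Raw read counts per gene in 12 whole-worm libraries, with no normalisation, were deposited by the authors, who per the labels' protocols made unstranded full-length cDNA from small amounts of RNA of pooled worms. Per the submitters' processing notes, STAR and featureCounts 1.5.1 were used with the genome build WBcel235. The annotation release, the strand setting and the treatment of reads with several matches are not stated in those notes. Amplified reads without molecular identifiers are not independent molecules, so detection floors of 3 counts cover counting error only.

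The table holds 46739 genes, of which 43720 were given a symbol and 46484 matched the Ensembl 115 annotation by identifier. All 12 libraries entered 1 fit in edgeR 4.0.16 (R 4.3.3), with a term per genotype, TMM scaling, the filterByExpr filter (10 counts, 15 in total) and the robust quasi-likelihood test. Each standard error was obtained from the log2 fold change and the root of its F statistic. P-values were adjusted over 18342 genes by Benjamini-Hochberg with a threshold of 0.05, and "rose" and "fell" name genes past it. Where the labels do not say that cultures were separate, p-values measure only the spread between these samples. On simulated counts with 200 changed genes, the test of the triple mutant against daf-2 recovered 23.9% of 2-fold and 57.6% of 4-fold changes. Of its 62 calls 2 (3.23%) were false. On the same simulated counts 22 of 92 calls (23.9%) were false with DESeq2 and 2 of 64 with limma-voom. The edgeR interaction test recovered 8.96% of 2-fold and 50% of 4-fold changes, with 0 of 41 calls false. Far more genes were called in the data, 2461 for the triple mutant against daf-2. The adjusted threshold depends on that number, so these rates need not hold there.

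The gene lists and the genes named were chosen with earlier results of these data known, so list counts are descriptions, read against the percent called among all genes. Genes were named by size of change, level, list, interaction and position in runs of neighbours, and the text gives part of them. Those named by size of change had at least 5 CPM in the higher group and no overlap between the 3 and 3 libraries. Alternatives were DESeq2 1.42.0, limma 3.58.1 (voom with quality weights), other scalings, no filter, the replicate number as a block, the 6 libraries alone and each library left out. No sequences are shown.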

Additional observations from a re-analysis of the deposited data

Results flagged for a closer look

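The difference that goes with the spr mutations was compared between the daf-2 background and the background with daf-2 intact. By the interaction term of the edgeR fit it differed for 897 genes upward and 629 downward (8.32% of genes tested). Single left-out libraries moved these counts between 504 and 1569 and between 268 and 936, the highest of each without replicate 2 of the double mutant. The 5 genes that follow had interaction calls of large size that held in all 12 fits without a library.

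The cuticle collagen gene col-154 was at 1.29, 1.37 and 1.8 CPM in daf-2 and 4.55, 8.4 and 6.13 CPM in the triple mutant, against 2.96, 3.84 and 4.66 CPM in N2 and 1.89, 1.48 and 1.58 CPM in the double mutant. Its interaction log2 fold change was 3.29 (edgeR adjusted p = 0.001), with a rise in the daf-2 background and a fall in the other. The laminin gene lam-1 was at 32.2, 27.3 and 19.7 CPM in N2 and 40.9, 56.2 and 45.2 CPM in the double mutant, while it fell from daf-2 to the triple mutant (interaction -2.49, edgeR adjusted p = 0.0019). For ifas-1 the levels were 2.5, 3.38 and 3.05 CPM in daf-2, 8.37, 14.9 and 14.7 CPM in the triple mutant, 31.9, 22.9 and 28.9 CPM in N2 and 14.2, 8.17 and 10.4 CPM in the double mutant (interaction 3.46, edgeR adjusted p = 0.00014).

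The moulting protease gene nas-37 was at 10.2, 10.2 and 5.03 CPM in N2 and 4.96, 4.93 and 8.16 CPM in the double mutant, a difference that did not pass (interaction -2.61, edgeR adjusted p = 0.0029). The gene irld-3 was at 0.0375, 0.754 and 0.816 CPM in N2 and 0.384, 0.423 and 0.217 CPM in the double mutant, all low beside daf-2 (interaction -4.24, edgeR adjusted p = 0.014). Groups of 3 libraries are too small for a test of single outlying libraries, and none was made.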

How the results depend on the processing

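Of the 470 genes named by rule, 0 reversed direction under any alternative, and 195 of 460 calls were lost without at least 1 library. The number losing their call was 7 with DESeq2 size factors, 6 with upper quartile scaling, 26 with no filter, 0 with DESeq2, 6 with limma-voom, 4 with the 6 libraries alone, and 2 to 147 across left-out libraries. The genes higher in the triple mutant numbered 1954 with limma-voom and 698 to 1452 without single libraries, and the lower ones 2023 and 678 to 1389. In the double mutant against N2, genes higher numbered 394 to 1154 without single libraries, and genes lower 1828 with DESeq2 and 549 to 1985 without single libraries. For the interaction, the higher genes numbered 1366 with DESeq2 and 504 to 1569 without single libraries, and the lower ones 954 with no filter, 989 with DESeq2, 944 with limma-voom and 268 to 936 without single libraries. In daf-2 against N2, genes higher numbered 1140 to 1817 and genes lower 1460 to 2315 without single libraries. X chromosome genes higher in the triple mutant, an alternative chosen after seeing the data, were 2.12 times as many with no filter, and numbered 78 with DESeq2, 107 with limma-voom, 101 with the 6 libraries alone and 25 to 83 without single libraries. The X genes lower numbered 421 with limma-voom and 155 to 315 without single libraries. The cause of these shifts was not tested. The replicate numbers share no stated source, and deviations of same-numbered libraries correlated at -0.07 to 0.06. With the replicate block 1080 genes were higher and 1030 lower, 2059 of them shared with the calls without it, and 47 named genes lost their call. Not every library of the triple mutant correlated best with its own number. The depth of 11892808 counts in daf-2 replicate 2 limits genes of low level.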
